A study of Nicotiana tabacum with 6 samples.

Results

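GAPA, GAPB and Rca are nuclear genes for chloroplast proteins of the Calvin cycle, and their transcripts were followed here in 6 RNA-seq libraries of mature tobacco leaf (Nicotiana tabacum). The genes were taken by locus, GAPA (ncbi_107780142 in the table, LOC107780142), GAPB (ncbi_107801158, LOC107801158) and Rca (ncbi_107798594, LOC107798594), and are 3 of the 68476 loci of the deposited table. They were selected on their FPKM values in these same libraries, which were lower in 1 of the 2 groups, so that difference is given as a description without a test. In the study, 3 libraries were labelled WT (wild type) and 3 were labelled OE-NtispH, from plants overexpressing NtispH, and both kinds of plant were grown alike. NtispH is the tobacco gene for the final enzyme of the plastid pathway that makes terpenoid precursors. The age of the plants, the promoter of the transgene and the number of plants or transgenic lines behind each library are not stated in the labels. Every spread below is thus that of the libraries at hand and may be technical only.

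The Calvin cycle fixes carbon dioxide in the chloroplast stroma with the energy and reducing power of the light reactions. GAPA and GAPB encode the subunits of the NADP-dependent glyceraldehyde 3-phosphate dehydrogenase, the enzyme of the reduction step, which assembles as a tetramer of both subunits or of the A subunit alone. The B subunit carries a C-terminal extension through which the enzyme is switched off in the dark, and the small protein CP12 can take a similar regulatory part for the A form. Rca encodes rubisco activase, an ATPase that frees rubisco, the carbon-fixing enzyme, from inhibitory sugar phosphates.

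The locus named ISPH did not separate the labels. Near-identical copies of it were not compared, so whether this locus is the overexpressed copy was not tested. ISPH (LOC107760258) stood at 108, 3038 and 559 FPKM (fragments per transcript length, scaled to the mapped fragments of the library) in the WT libraries 1 to 3, and at 2761, 685 and 854 FPKM in the OE-NtispH libraries 1 to 3. The highest value was in a library labelled WT, so the groups are named by their labels and every direction is between libraries as labelled. The libraries looked like leaf: 4 markers of photosynthetic leaf, all antenna protein genes, summed to between 13460 and 15290 FPKM in WT and between 9329 and 11340 in OE-NtispH. Of 9 root markers 6 were listed at 0 in every library, and the floral gene AG1 was at or near 0. The other 3 root markers were above 0 in every library. QPT2A had 16.5 to 37.6 FPKM, QPT1B 3.38 to 7.33 and RT-TIP 0.386 to 2.74 over the 6 libraries.

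GAPA was among the abundant transcripts of the leaf. Its level was 1019, 1353 and 1241 FPKM in the WT libraries, given in the order of their replicate numbers, and 739, 974 and 671 FPKM in the OE-NtispH libraries. The highest OE-NtispH library, replicate 2, came close to the lowest WT library, replicate 1, without reaching it. The means were 1204 ± 169.7 and 795 ± 159 FPKM (SD, n = 3), so the OE-NtispH mean was 34.0% lower.

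The GAPB locus stood far below the GAPA locus in every library. Its level was 202, 241 and 227 FPKM in the WT replicates and 81.3, 125 and 112 FPKM in the OE-NtispH replicates. Every OE-NtispH library was well under every WT library, with OE-NtispH replicate 1 the lowest. The means were 223 ± 19.6 and 106 ± 22.4 FPKM (SD, n = 3), a mean 52.5% lower in OE-NtispH.

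Rca stood at the level of GAPA. It had 1226, 1302 and 1319.8 FPKM in the WT replicates and 679.5, 932 and 789 FPKM in the OE-NtispH replicates. The WT libraries were close together, with a coefficient of variation of 3.87%, and the OE-NtispH libraries were spread more widely, at 15.8%. The means were 1282 ± 49.7 and 800.3 ± 126.6 FPKM (SD, n = 3), a mean 37.6% lower in OE-NtispH.

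**Figure D1:**
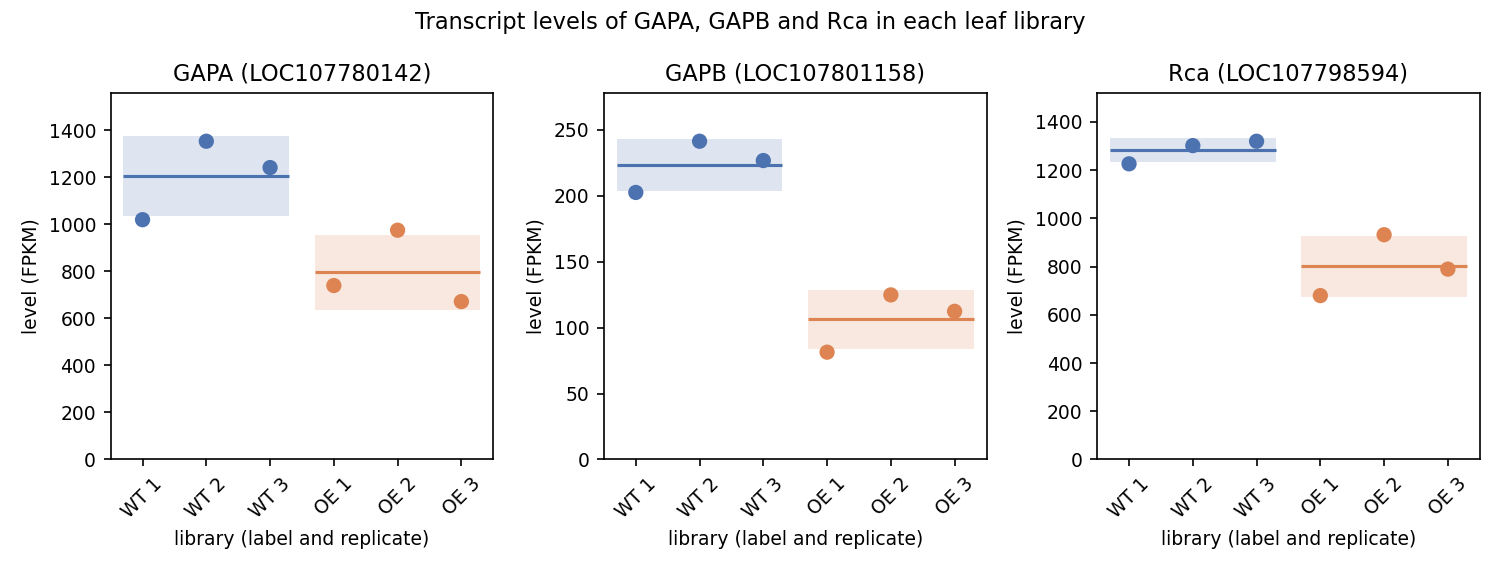
Level in FPKM (y axis, from 0, on a separate scale for each gene) of GAPA, GAPB and Rca in the 6 libraries (x axis; WT and OE-NtispH, shortened to OE, with the replicate number). Points are libraries, lines are group means and bands are ± 1 SD (n = 3); in each panel the 3 OE-NtispH points lie under the 3 WT points, and OE-NtispH replicate 2 is the highest of its group.

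In order of level per length, Rca and GAPA led and did not differ beyond their spread in either group, and GAPB followed far below. Ranked among all loci within a library, GAPA stood between place 85 and place 106 in WT and between 107 and 147 in OE-NtispH. Rca stood between 87 and 93 in WT and between 113 and 139 in OE-NtispH. GAPB dropped further down the order, from places 325 to 396 in WT to places 673 to 1098 in OE-NtispH. The 3 genes together made up 0.321% to 0.376% of the summed FPKM in WT and 0.201% to 0.265% in the OE-NtispH libraries.

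On the log2(FPKM + 1) scale, the change from WT to OE-NtispH was -0.61 ± 0.18 for GAPA, -1.09 ± 0.18 for GAPB and -0.69 ± 0.15 for Rca (SE of the limma fit over all loci). The median change of all 40725 loci tested, which averaged 0.5 FPKM or more, was 0.13, and relative to it the changes were -0.74, -1.22 and -0.82. For all 3 genes the groups did not overlap, which also held, in the direction of lower in OE-NtispH, for 8.59% of all tested loci. Among the 814 tested loci that averaged 100 FPKM or more, the abundance class of these genes, 288 did so, or 35.4%. Because this contrast chose the genes, nothing is read from that count. In bulk leaf RNA, fewer photosynthetic cells and less transcript per cell cannot be told apart.

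The ratio of GAPA to GAPB within a library does not depend on a common scaling of that library. It was 5.04, 5.61 and 5.48 in WT and 9.09, 7.81 and 5.98 in OE-NtispH, again in the order of the replicate numbers. The WT libraries were nearly alike and the OE-NtispH libraries were not: replicate 1 had the highest ratio, and replicate 3 stood only a little over the highest WT library. The means were 5.37 ± 0.30 and 7.63 ± 1.57 (SD, n = 3), a log2 difference of 0.49 with a pooled SD between libraries of 0.22. Transcripts of the GAPA locus therefore outnumbered those of the GAPB locus per length in all 6 libraries, and by more in the libraries labelled OE-NtispH. Near-identical copies of either gene were not compared, so this holds for these loci only.

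The ratio of Rca to GAPB moved in the same direction as that of GAPA to GAPB. It was 6.06, 5.40 and 5.83 in the WT replicates and 8.36, 7.47 and 7.03 in the OE-NtispH replicates, with no overlap and a log2 difference of 0.40 (pooled SD 0.11). The ratio of Rca to GAPA did not separate the groups. It was 1.20, 0.962 and 1.06 in WT and 0.919, 0.956 and 1.18 in OE-NtispH, a log2 difference of -0.08 against a pooled SD of 0.18. GAPB was thus the gene that lay lower in OE-NtispH relative to both of the others.

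**Figure D2:**
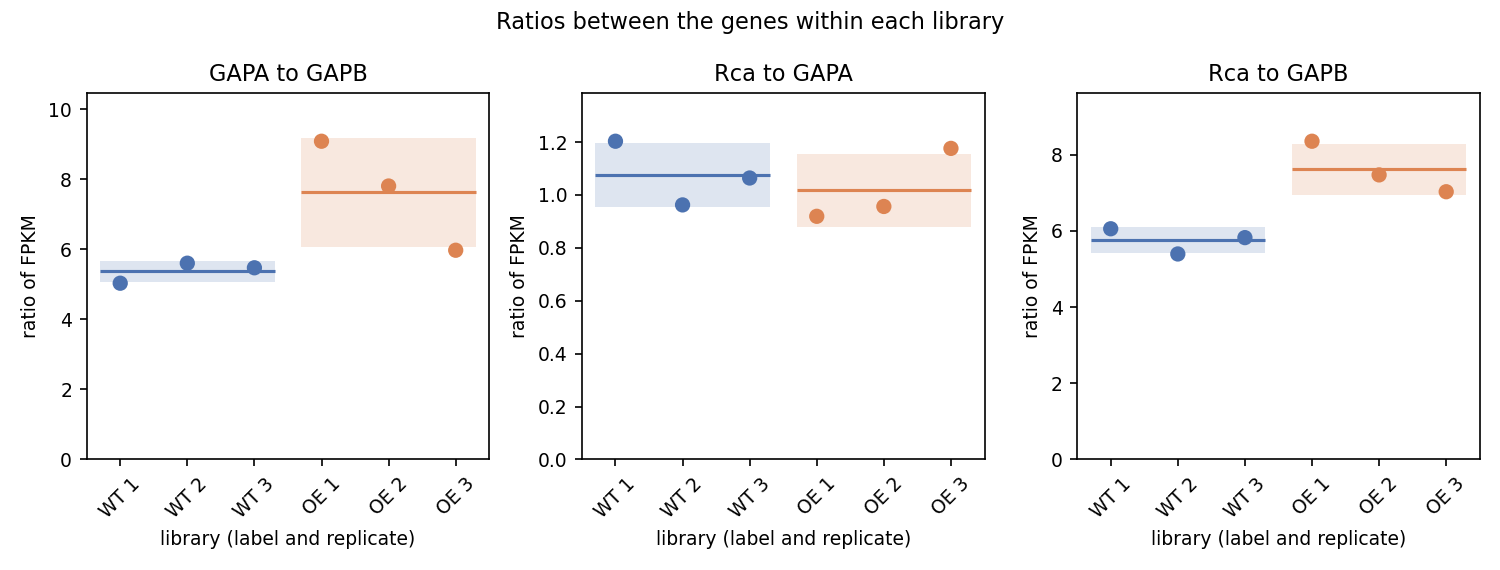
Ratio of FPKM (y axis, from 0, no unit) of GAPA to GAPB, Rca to GAPA and Rca to GAPB within each of the 6 libraries (x axis). Points are libraries, lines are group means and bands are ± 1 SD (n = 3); the ratios over GAPB lie higher in all 3 OE-NtispH libraries, up to 9.09 and 8.36, while Rca to GAPA stays between 0.919 and 1.20.

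Whether the genes moved together was also read within the groups, a measure that did not choose them. All 3 were at their WT minimum in replicate 1 and at their OE-NtispH maximum in replicate 2. This combination of libraries was found in 9.64% of all tested loci and in 27.3% of the 814 abundant ones. The departures of WT replicate 1 from its group mean were -0.23 for GAPA, -0.14 for GAPB and -0.06 for Rca on the log2(FPKM + 1) scale. Those of OE-NtispH replicate 2 were 0.31, 0.25 and 0.23.

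The genes parted in the remaining OE-NtispH libraries. GAPA was lowest in replicate 3, at -0.23 from its group mean, with replicate 1 at -0.09. GAPB and Rca were lowest in replicate 1, at -0.36 and -0.22, with replicate 3 at 0.10 and -0.01. Across the 6 departures the correlation was 0.93 between GAPB and Rca, 0.70 between GAPA and Rca and 0.59 between GAPA and GAPB. Of the other tested loci, 1.01% correlated with GAPB at least as highly as Rca did. With GAPA, 8.48% did so at least as highly as Rca and 13.1% at least as highly as GAPB. These correlations are descriptions over 6 libraries, and departures within a group of 3 are not independent. By these values GAPB lay nearer to Rca than to the gene of its partner subunit, a difference that was not tested.

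**Figure D3:**
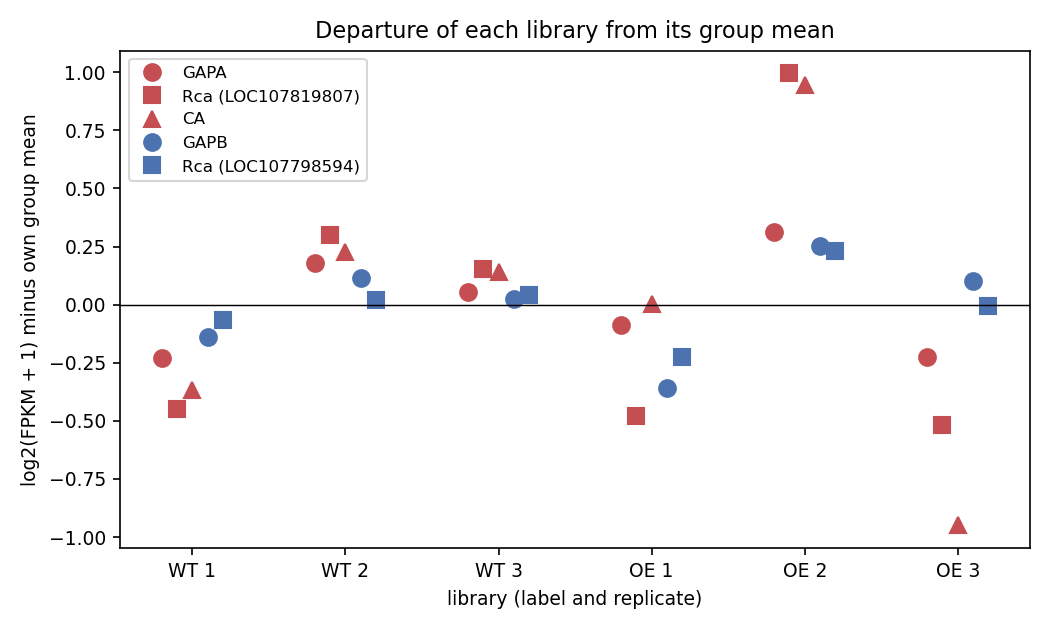
Departure of each library from its own group mean on the log2(FPKM + 1) scale (y axis) for GAPA, GAPB, both Rca loci and CA in the 6 libraries (x axis). Each point is 1 library, shifted sideways for visibility; all 5 loci are below 0 in WT replicate 1 and above 0 in OE-NtispH replicate 2, and in OE-NtispH replicate 3 GAPA, CA and Rca (LOC107819807) are low while GAPB is not.

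The Calvin cycle list, which also took in carbonic anhydrase, held 2 further loci, since only loci with a gene symbol could be placed. A second locus named Rca (LOC107819807) had 32.3, 54.9 and 49.5 FPKM in the WT replicates and 10.1, 29.9 and 9.85 in the OE-NtispH replicates. It was therefore the minor of the named Rca loci, and the ratio of the major to the minor Rca locus ran from 23.7 to 80.1 over the 6 libraries. Its log2 change was -1.55 ± 0.46 (SE) and it did not pass the test (limma, adjusted p = 0.112), although its groups did not overlap. CA (LOC107768773), for carbonic anhydrase, which interconverts carbon dioxide and bicarbonate, had 1583, 2385 and 2252 FPKM in WT and 926, 1783 and 478 FPKM in OE-NtispH. OE-NtispH replicate 2 was above the lowest WT library, so its groups overlapped, and it did not pass either (limma, log2 change -1.14 ± 0.47 SE, adjusted p = 0.19).

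Because 3 of the 5 loci of the list were chosen for being lower, no count or median over the whole list is read. Of the 2 other loci 0 passed as lower in the limma test with all libraries, where 0.567% of all tested loci did. At an unadjusted p under 0.05 the minor Rca locus was lower and CA was not, beside 7.03% of all tested loci lower at that threshold. Without OE-NtispH replicate 2 the minor Rca locus passed (limma, log2 change -2.05, adjusted p = 0.0212) and CA did not (limma, adjusted p = 0.0603). In that fit 633 of 40725 tested loci passed as lower, against 231 with all libraries. Both loci outside the chosen 3 shared with GAPA the order of the OE-NtispH libraries, with replicate 3 lowest. Replicate 3 was the lowest of its group at 34.4% of all tested loci and 29.5% of the 814 abundant ones. For the minor Rca locus replicates 1 and 3 were almost equal, at 10.1 and 9.85 FPKM.

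The cytosolic counterparts of GAPA and GAPB, the glycolytic dehydrogenase genes, had similar mean levels in both groups. GAPC (LOC107817426) had 83.6 ± 5.27 FPKM in WT and 85.9 ± 7.81 FPKM in OE-NtispH (SD, n = 3), and GAPC1 (LOC107787153) had 69.0 ± 3.49 and 72.9 ± 6.76 FPKM. Both differed by less than the spread between libraries, with log2 changes of 0.04 and 0.08 that turned negative under median-of-ratios scaling and quantile normalization. The sum of GAPA and GAPB was 7.73, 10.2 and 10.3 times that of GAPC and GAPC1 in the WT replicates and 5.06, 6.95 and 5.02 times in the OE-NtispH replicates. The groups did not overlap in this chloroplast to cytosol ratio. Its upper part holds genes chosen for being lower in this contrast, so nothing is read from that gap. The other 3 reported loci of the sugar phosphate list were SPSC and sps, for sucrose phosphate synthase, and PEPC, for phosphoenolpyruvate carboxylase. None of these 5 passed in the limma test with all libraries, where 1.81% of all tested loci passed in either direction. At an unadjusted p under 0.05, 0 of the 5 were called, beside 26.4% of all tested loci. With median-of-ratios scaling or quantile normalization, 2 of the 5 were lower at that threshold, beside 11.7% and 11.1% of all tested loci. Their log2 changes ran from -0.38 for SPSC (LOC107826329) to 0.11 for sps (LOC107766133). Without OE-NtispH replicate 3, SPSC passed as lower (limma, log2 change -0.59, adjusted p = 0.0368). In that fit 893 of 40725 tested loci passed as lower, against 231 with all libraries.

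Photorespiration salvages the product of rubisco's reaction with oxygen, and catalase removes the hydrogen peroxide it makes in leaf peroxisomes. Of its list only 3 catalase loci carried a symbol, and 0 of them passed as lower in the limma test with all libraries. All 3 met an unadjusted p under 0.05, beside 26.4% of all tested loci. Of these, 2 were lower, beside 7.03% of all tested loci, and cat3 was higher. The cat1 locus LOC107799583 had 144, 202 and 184 FPKM in WT and 77.3, 116 and 96.8 FPKM in OE-NtispH (limma, log2 change -0.87 ± 0.19 SE, adjusted p = 0.0546). Another cat1 locus, LOC107828252, had 178 ± 8.38 and 119.4 ± 29.6 FPKM (SD, n = 3). At both loci, as at all 3 chosen genes, WT replicate 1 was the lowest of its group and OE-NtispH replicate 2 the highest. This combination was found in 9.64% of all tested loci and in 27.3% of the 814 abundant ones. The cat3 locus LOC107771182 went the other way, at 6.06 ± 0.83 and 11.5 ± 4.02 FPKM (SD, n = 3). It was higher without overlap, as were 9749 of 40725 tested loci, and did not pass with all libraries (limma, adjusted p = 0.104).

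Among the 18 nuclear loci of the light reactions 17 lay below 0 in their log2 change, or 12 after quantile normalization, and the median was -0.41. The share below 0 was 33.7% of all tested loci and 51.5% of the 814 abundant ones. The antenna gene Lhcb6 (LOC107792047) passed as lower, with 1797 ± 122 FPKM in WT against 906.3 ± 236.4 in OE-NtispH (SD, n = 3; limma, adjusted p = 0.0486). FNR (LOC107825625), for ferredoxin-NADP reductase, passed as higher, with 16.4 ± 1.87 FPKM in WT against 31.4 ± 4.93 in OE-NtispH (SD, n = 3; limma, adjusted p = 0.0365), beside 1.24% of all tested loci called higher. The next smallest p of the list was that of atpC (LOC107813955), for a subunit of the chloroplast ATP synthase, with 421.9 ± 4.53 FPKM in WT and 290.1 ± 26.2 in OE-NtispH (SD, n = 3), which did not pass (limma, adjusted p = 0.0617). After quantile normalization Lhcb6 did not pass (limma, adjusted p = 0.0795) while atpC did (limma, log2 change -0.67, adjusted p = 0.049), and atpC also passed without OE-NtispH replicate 3 (limma, adjusted p = 0.0446). In these fits 359 and 893 of all tested loci passed as lower, against 231 in the main fit. The calls of Lhcb6 and FNR were lost with no filter (limma, adjusted p of 0.0779 for Lhcb6 and 0.0634 for FNR) and without trend and robust settings (0.071 and 0.0602). With median-of-ratios scaling neither Lhcb6 nor FNR passed (limma, adjusted p of 0.0545 and 0.0538), with log2 changes of -1.18 and 0.74. Leaving out any WT replicate, or OE-NtispH replicate 1, ended both calls (limma, adjusted p of 0.0929 to 0.191 for Lhcb6 and 0.0812 to 0.172 for FNR). Set against the summed level of these 18 loci, GAPB was 0.616% to 0.668% in WT and 0.325% to 0.431% in OE-NtispH, and Rca was 3.61% to 3.85% and 2.72% to 3.22%, with no overlap for either. GAPA was 3.10% to 3.75% and 2.49% to 3.37% by the same measure, so its groups overlapped. Because this contrast chose GAPA, GAPB and Rca, nothing is read from the gaps in these shares. OE-NtispH replicate 1 was the lowest of its group at 14 of the 18 loci, as for GAPB and Rca, and replicate 3 at the other 4, as for GAPA. Replicate 1 was the lowest at 27.5% of all tested loci and 43.1% of the 814 abundant ones. For replicate 3 these shares were 34.4% and 29.5%.

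**Figure D4:**
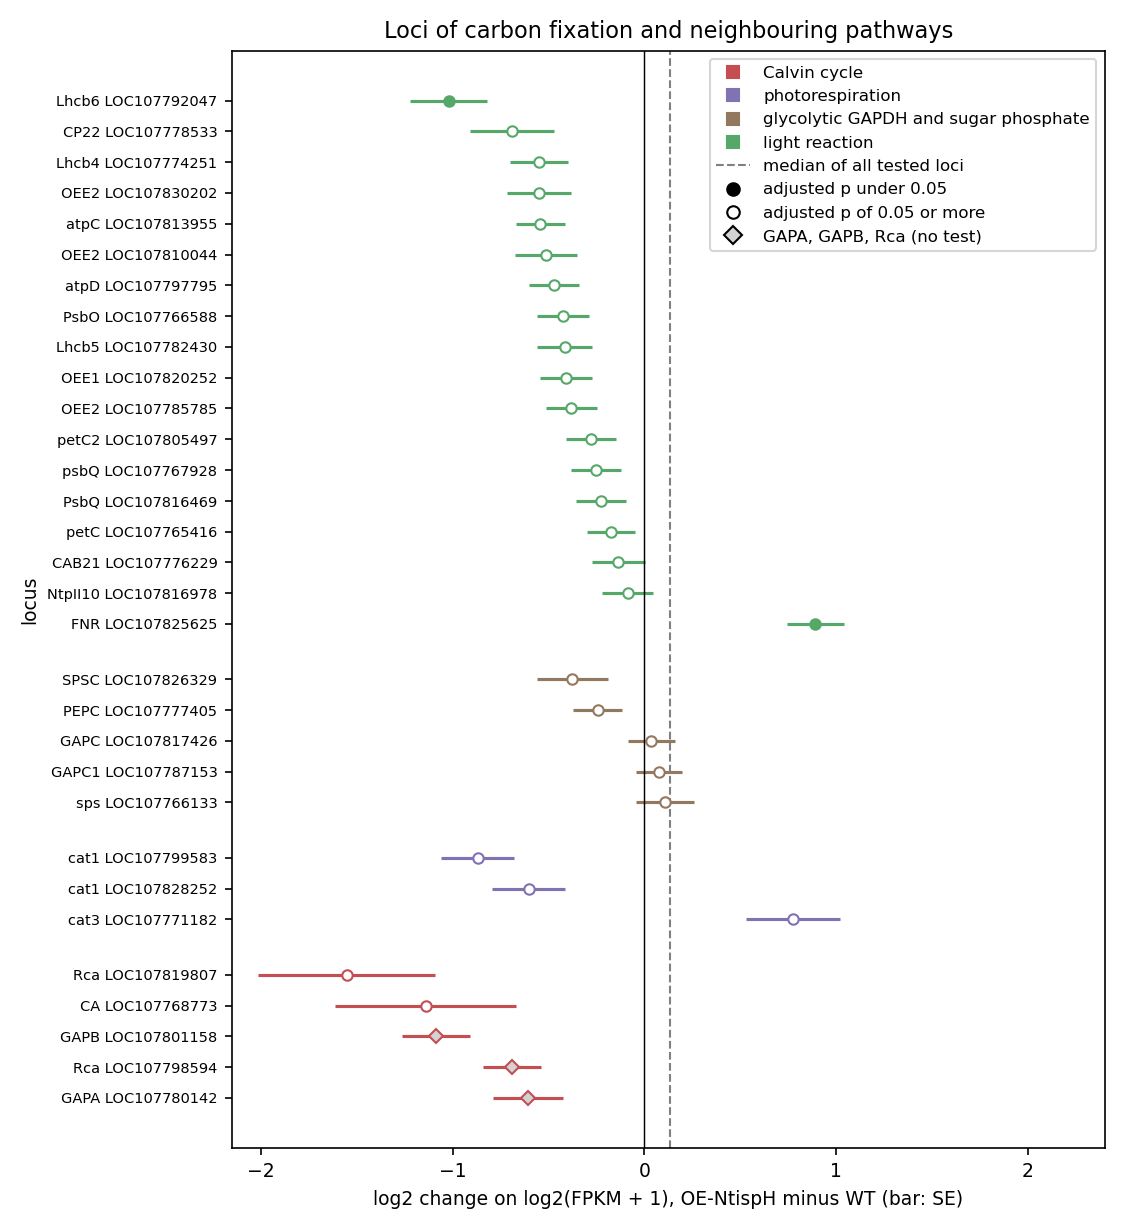
Log2 change on the log2(FPKM + 1) scale, OE-NtispH minus WT (x axis), for each reported locus (y axis) of the Calvin cycle, photorespiration, glycolytic and light reaction lists. Points are coefficients and bars are SE of the limma fit (3 libraries per group); filled circles passed at an adjusted p under 0.05, diamonds are GAPA, GAPB and Rca, shown without a test, and the dashed line is the median of all tested loci, 0.13. The 5 loci of the Calvin cycle list, which also took in carbonic anhydrase (CA), lie between -1.55 and -0.61. Because 3 of them were chosen for being lower, nothing is read from that range. GAPC and GAPC1 lie at 0.04 and 0.08.

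Markers of dividing cells and of ageing leaf were also set beside the chosen genes. All 4 tested markers of dividing cells were below 0, beside 33.7% of all tested loci. All 4 were also lower without overlap, beside 8.59% of all tested loci. With all libraries 0 of the 4 passed (limma, adjusted p of 0.0627 to 0.257). Without OE-NtispH replicate 2, PCNA (LOC107778290) and RNR1b (LOC107807190) passed as lower (limma, adjusted p of 0.0367 and 0.041). The others did not (limma, adjusted p of 0.0869 and 0.343). In that fit 633 of 40725 tested loci passed as lower. The 4 tested markers were low loci, with group means between 0.802 and 5.47 FPKM. The 5 listed markers summed to 14.2 to 16.1 FPKM in WT and 5.98 to 9.37 FPKM in OE-NtispH. Of 6 senescence markers SAG12 and CP1 were listed at 0 in every library, while gdh1 (LOC107778990), for glutamate dehydrogenase, rose, with 10.7 ± 1.12 FPKM in WT and 26.8 ± 3.47 in OE-NtispH (SD, n = 3; limma, adjusted p = 0.0182). Leaving out any WT replicate, or OE-NtispH replicate 1, ended the call of gdh1 (limma, adjusted p of 0.0566 to 0.119). Of the other 3 tested senescence markers 0 passed with all libraries: Gln1-5 (LOC107825623), for a glutamine synthetase, had 26.6 ± 3.78 FPKM in WT and 10.9 ± 5.86 in OE-NtispH without overlap (SD, n = 3; limma, adjusted p = 0.0738), and passed as lower without OE-NtispH replicate 2 (limma, adjusted p = 0.0198). In that fit 633 of all tested loci passed as lower. CP2 (LOC107815477) had 8.99 ± 4.36 and 3.60 ± 3.47 FPKM, and Gln1-3 (LOC107777858) had 5.52 ± 0.23 and 6.01 ± 1.81 FPKM (SD, n = 3). The 6 markers summed to 44.4 to 58.95 FPKM in WT and 43.6 to 53.7 in OE-NtispH. The part of leaf age or cell make-up in the levels of GAPA, GAPB and Rca was not tested. The 3 trichome markers summed to 141.5 to 217.5 FPKM in WT and 127.2 to 252.5 in OE-NtispH, and these ranges overlapped. They went different ways, with log2 changes of -1.38 for CYP71D20, 0.50 for NtPDR1 and 0.03 for abs, and 0 passed with all libraries. CYP71D20 ran from 3.67 to 92.5 FPKM within WT. Without OE-NtispH replicate 2, NtPDR1 passed as higher (limma, adjusted p = 0.0456), as did 722 of 40725 tested loci.

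The loci most like each gene were sought by the correlation of log2(FPKM + 1) over the 6 libraries, among loci averaging 5 FPKM or more. This measure is a description, and the gap between the groups enters it. For GAPB the most alike named loci were Lhcb6 and Lhcb4, genes of minor antenna proteins of photosystem II (0.99 for both), then Rca itself (0.99), dxs (LOC107790348), for the entry enzyme of the plastid terpenoid precursor pathway, and psy-1, for phytoene synthase of carotenoid synthesis. For Rca they were again Lhcb6 and Lhcb4, then another dxs locus (LOC107818796), RBCMT, for a methyltransferase that acts on the large subunit of rubisco, and agpL3, for the large subunit of the starch synthesis enzyme ADP-glucose pyrophosphorylase. RBCMT (LOC107778201) was at 10.1, 11.2 and 11.4 FPKM in WT and at 6.13, 8.34 and 6.55 in OE-NtispH.

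For GAPA the named loci were different ones. They were GSA and CPX, for the chlorophyll and haem synthesis enzymes glutamate 1-semialdehyde aminotransferase and coproporphyrinogen oxidase, the minor Rca locus, the oxygen-evolving complex gene OEE2 (LOC107830202) and the expansin gene Nt-EXPA1, with correlations between 0.97 and 0.99. GSA (LOC107769957) had 48.0, 54.2 and 53.7 FPKM in WT and 38.1, 46.9 and 34.1 in OE-NtispH, the same order of libraries as GAPA. Without a gene name, LOC107791365 and LOC107775341 were most like GAPA, LOC107807939 and LOC107798764 most like GAPB, and LOC107780395 and LOC107761847 most like Rca. The nearest of them to GAPB, LOC107807939, averaged 721.8 FPKM in the WT libraries against 330.0 in the others. Of 40724 other tested loci, 52 were placed at or above Rca in likeness to GAPB, Rca included, and 1145 at or above GAPB in likeness to GAPA.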

How the data were processed

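Poly(A) RNA of 6 mature leaf samples was sequenced, per the labels' protocols, and the authors deposited FPKM per locus. The submitters' processing notes name RSEM, StringTie, HISAT2, Bowtie2 and fastp, without versions or roles. Neither the genome build nor the treatment of fragments with several matches is stated there. Tobacco is allotetraploid, so fragments of near-identical copies may be split between loci, and the level of any single locus is uncertain to that extent.

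Groups and replicate numbers came from the sample titles. Symbols came from a RefSeq gene table (ASM71507v2), which matched 49268 of 61780 gene numbers, and 4 loci whose symbol means or may mean another gene were left out of the lists; 1 further listed locus is not reported here. Loci averaging 0.5 FPKM or more entered a limma fit (version 3.58.1, under R 4.3.3) on log2(FPKM + 1), with trend and robust settings, two-sided, with Benjamini-Hochberg adjustment at 0.05. A pseudocount of 1 understates the change of low loci. Ratios used FPKM as deposited. Tables and figures used Python 3.11.15, and the fit was tested on simulated data. The read depth is unknown; relative to WT replicate 1, the commonest ratio of low values, searched only near 1, gave 1.025 to 1.175 for the rest.

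The genes and lists were chosen with earlier results of these data known. Genes named are the 3 genes, all tested Calvin cycle loci, loci past the threshold and of smallest p in the other lists, and for each gene the 5 named and 2 unnamed loci most like it. Other loci of the lists, the markers and the ratios to GAPC and to the light reaction sum were named after their values were seen. Alternatives were another pseudocount, filter, scaling and model, a replicate block and leaving out each library.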

Additional observations from a re-analysis of the deposited data

How the results depend on the processing

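Of 78 alternative values for the changes and ratios of GAPA, GAPB and Rca, 0 changed sign and 74 moved by less than 1 SD between libraries. Many of these could not move: the filter, the trend and robust settings and the replicate block leave a log2 change as it is. A common scaling of a library, or the block, leaves a ratio as it is. Where the groups do not overlap, leaving out 1 library cannot reverse a sign, so nothing is read from these counts. The 4 that moved further came from quantile normalization, which ties values to ranks: log2 changes of -0.36 for GAPA and -0.45 for Rca, and of 0.86 and 0.77 for the ratios of GAPA and of Rca to GAPB. Leaving out single libraries gave -0.76 to -0.49 for GAPA, -1.21 to -0.91 for GAPB, -0.81 to -0.58 for Rca and 0.35 to 0.65 for GAPA to GAPB. The median of the Calvin cycle list, from which nothing is read, was -1.09 with all libraries and -0.69 without OE-NtispH replicate 3.

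Of 40725 loci 737 passed. With no filter 38 did, at a mean of at least 2 FPKM 1375, with median-of-ratios scaling 330 (136 higher, 194 lower, against 506 and 231), with quantile normalization 235 higher and 359 lower, without trend and robust settings 53, and 0 to 3103 without single libraries (0 without WT replicate 1 or OE-NtispH replicate 1, with 10207 and 7221 at unadjusted p under 0.05, 1 and 17 without WT replicates 2 and 3, 1355 and 3103 without OE-NtispH replicates 2 and 3). The labels do not say whether the replicate numbers pair libraries. Same-numbered libraries did not deviate together (r of -0.13, 0.05 and -0.16), and differently numbered ones ranged from -0.094 to 0.193. With so few libraries these values cannot settle whether the numbers are pairs. With a replicate block 68 loci passed. Calvin cycle calls, 1 of 5 and mostly of the chosen genes, from which nothing is read, became 0 with no filter, without trend and with the block, 2 at 2 FPKM and 0 to 4 without single libraries. Light reaction calls as lower, 1 of 18, became 0 with no filter, median-of-ratios scaling, no trend and the block, and 0 to 5 without single libraries; with the block FNR and gdh1 also missed the threshold (limma, adjusted p of 0.055 and 0.0518). Photorespiration calls, 0 of 3, became 1 at 2 FPKM and 0 to 1 without single libraries, and glycolytic calls as lower, 0 of 5, became 0 to 1. The cause was not tested. Summing both Rca loci, chosen after seeing the data, left its change within 1 SD. Comparisons over near-identical copies were not run. Without read counts, no counting interval can be given.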
